A study of Homo sapiens with 12 samples.

Results

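The 45 genes described here act in the G2 phase and in mitosis, and were taken as a named list whose members needed a probe with a detection p-value under 0.05 on 3 or more of the 12 arrays. Of the 45, 44 passed and were among the 11414 genes tested in all. The probe of highest mean, which stands for the gene, was detected on 12 of 12 arrays for all 44. The only member left out was MKI67, the proliferation antigen Ki-67, whose single named probe was detected on 0 arrays. That does not show that its RNA was absent. BIRC5, NUF2 and ZWINT also have a probe detected on 0 arrays, beside another detected on 12. The rule uses detection and no treatment response, but the members were chosen with earlier results of these data known. The list divides into cyclin-CDK regulators (7 genes), kinesins (6), kinetochore and checkpoint genes (12), mitotic kinases with the passenger complex (5), anaphase regulators (4), spindle and midzone genes (6), cytokinesis genes (2), and TOP2A and FOXM1 (2).

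The arrays come from VCaP, a human prostate cancer cell line that carries the androgen receptor and the TMPRSS2-ERG fusion, grown in complete medium. Cultures received the DMSO vehicle (Veh), 0.1 nM DHT (dihydrotestosterone, the natural ligand of the androgen receptor), 10 micromolar enzalutamide (an antagonist of that receptor), or 10 micromolar enzalutamide with 100 nM dexamethasone (an agonist of the glucocorticoid receptor), called the combination here. Each group had 3 cultures, which the series describes as biological triplicates, and RNA was taken after 24 h. No group received dexamethasone alone, and all 12 cultures are of 1 cell line in medium that is not described as depleted of hormone.

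A cell enters mitosis when CDK1 bound to a B-type cyclin is switched on by CDC25 phosphatases. Kinesins and their partners build the spindle, kinetochores tie chromosomes to it, and the checkpoint proteins hold back CDC20 and the anaphase-promoting complex until every chromosome is attached. The RNAs of these genes are low in G1 and high in G2, and the genes are transcribed under the MuvB complex with B-MYB and FOXM1, which reads the cell cycle homology region (CHR), together with NF-Y, which reads CCAAT boxes.

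Promoter sequence of the members is shown first, since these motifs are what the family is known to share. RefSeq promoter entries (GRCh38.p14, 250 bases before to 50 bases after the gene's start) were matched by symbol for 38 of the 45 members, and where a symbol had more than 1 entry, as for 7 members, the first listed was used. The CHR core was searched as TTTGAA or TTCGAA and the CCAAT box as CCAAT, each on both strands, so that TTCAAA and ATTGG count as matches. Other forms of the CHR core were not searched, so a promoter without a match can still hold one. A CHR match shared bases with a CCAAT match in 2 places of the member promoters and was counted for both motifs. The 5 members that rose with DHT against vehicle and have an entry are printed with CCNB2, a B-type cyclin chosen for its several matches, each as the 250 bases before the start, 5′ to 3′ on the gene's strand, with matches in capitals.
CCNB2 (chr15:59104896-59105145, plus strand): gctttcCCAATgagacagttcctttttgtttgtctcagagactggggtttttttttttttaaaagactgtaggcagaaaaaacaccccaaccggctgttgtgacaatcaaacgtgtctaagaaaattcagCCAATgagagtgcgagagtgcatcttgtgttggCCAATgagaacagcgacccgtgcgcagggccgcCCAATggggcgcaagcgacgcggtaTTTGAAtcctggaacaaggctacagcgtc
CDK1 (chr10:60778081-60778330, plus strand): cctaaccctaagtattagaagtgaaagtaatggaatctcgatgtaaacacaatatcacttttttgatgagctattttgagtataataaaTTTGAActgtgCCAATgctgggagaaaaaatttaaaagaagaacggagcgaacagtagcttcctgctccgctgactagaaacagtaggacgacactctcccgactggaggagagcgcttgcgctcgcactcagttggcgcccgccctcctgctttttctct
DLGAP5 (chr14:55191586-55191835, minus strand): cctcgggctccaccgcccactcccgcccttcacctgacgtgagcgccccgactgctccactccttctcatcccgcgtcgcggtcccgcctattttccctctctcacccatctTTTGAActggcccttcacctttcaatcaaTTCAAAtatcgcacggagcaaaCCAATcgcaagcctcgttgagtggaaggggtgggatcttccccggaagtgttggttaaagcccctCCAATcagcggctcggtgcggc
CCNA2 (chr4:121823884-121824133, minus strand): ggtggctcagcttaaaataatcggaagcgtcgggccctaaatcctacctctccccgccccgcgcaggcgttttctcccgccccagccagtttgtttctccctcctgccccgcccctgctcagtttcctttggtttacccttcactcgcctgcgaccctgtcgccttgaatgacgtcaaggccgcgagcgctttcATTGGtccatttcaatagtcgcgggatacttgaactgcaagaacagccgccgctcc
KIF20A (chr5:138178862-138179111, plus strand): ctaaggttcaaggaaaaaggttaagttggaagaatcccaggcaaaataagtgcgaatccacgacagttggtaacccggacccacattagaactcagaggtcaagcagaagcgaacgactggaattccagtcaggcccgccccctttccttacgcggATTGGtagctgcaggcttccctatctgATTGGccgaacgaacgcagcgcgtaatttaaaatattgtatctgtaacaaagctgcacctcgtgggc
CENPE (chr4:103198344-103198593, minus strand): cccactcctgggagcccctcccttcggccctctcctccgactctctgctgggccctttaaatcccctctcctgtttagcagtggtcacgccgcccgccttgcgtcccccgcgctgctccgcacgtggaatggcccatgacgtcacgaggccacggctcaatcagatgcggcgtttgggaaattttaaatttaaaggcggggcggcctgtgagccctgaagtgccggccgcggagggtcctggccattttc
CCNB2 held a CHR core 29 bases before the start and CCAAT boxes 244, 120, 87 and 54 bases before it. CDK1 held 1 match of each motif, 161 and 150 bases before the listed start. DLGAP5 held CHR cores 138 and 109 bases before the start and CCAAT boxes 87 and 22 bases before it. A further CHR core of DLGAP5 lay after the start, beyond the bases printed. CCNA2 and KIF20A held CCAAT boxes and no CHR core of the forms searched, and CENPE held no match to either motif in this window. Their matches lie 56 bases before the start in CCNA2, and 94 and 67 bases before it in KIF20A.

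A CHR core was present in 29 of the 38 member promoters (76.3%), against 16.6% of all 27305 promoters of the same length. CCAAT was present in 30 of 38 (78.9%), against 35.7% of all promoters. Both motifs were present in 25 of 38 (65.8%), against 6.58%. The share with a CHR core was 9 of 10 among the kinetochore and checkpoint genes with an entry, 5 of 5 among the spindle and midzone genes, 4 of 6 among the kinesins and 3 of 7 among the cyclin-CDK regulators. A list of 42 G1/S and replication genes, which act before mitosis, differed in the CHR share: 2 of its 36 matched promoters held a CHR core (5.56%), while 20 of 36 held CCAAT (55.6%). A further list of 63 G2/M genes that are not members had a CHR core in 32 of 52 promoters (61.5%). A list of 14 subunits of the anaphase-promoting complex had it in 2 of 14 (14.3%). Of the 39 CHR matches in the member promoters, 20 began within 60 bases before the start and 9 after it. These shares describe letters in a window, count only the forms searched, carry no test, and say nothing of binding in VCaP cells.

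**Figure D1:**
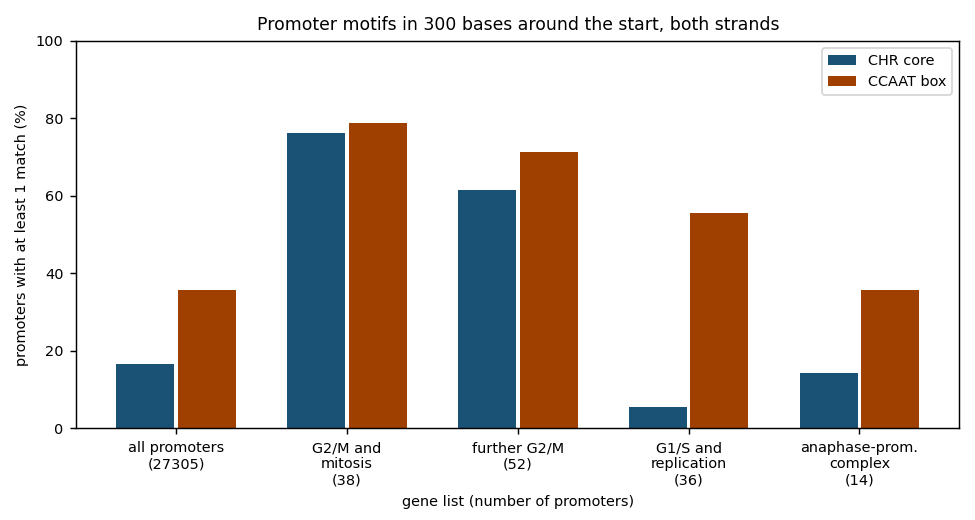
Bars give the percentage of promoters (300 bases around the RefSeq start, both strands) with at least 1 CHR core (blue) or CCAAT box (brown), with the number of promoters under each list on the horizontal axis. The member promoters reach 76.3% for the CHR core, against 5.56% for the G1/S list and 16.6% for all promoters.

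Arrays differed in brightness, with a mean unprocessed intensity of 199 on vehicle array 3 and of 271 to 344 on the other 11. Between 15852 and 18352 probes (33.5% to 38.8%) were detected on an array. Of 14 luminal prostate markers, 12 had a named probe and 12 were detected, and the summed normalized intensity of that list was 10858 to 11596 on the vehicle arrays and 17359 to 18026 with DHT. Of the basal markers 0 of 3 were detected on 3 arrays, of the stromal markers 1 of 5 (ACTA2), of the immune markers 1 of 4 (CD14) and of the endothelial markers 2 of 4 (PECAM1 and VWF). PDGFRB, CD3E, LYZ, CDH5, KDR, KRT5 and KRT14, defining markers of other cell types, were detected on 0 arrays. The labels name no batch. On the first component (12.5% of the variance) of the ranks of probes detected on no array, vehicle array 3, also the dimmest, stood far from the other 11. A division at 0 on that component, used below as 2 technical sets, put 2 vehicle and 2 DHT arrays in set 1 with 1 of each other group, and 1 vehicle and 1 DHT array in set 2 with 2 of each other group.

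All values below are normalized log2 intensities of 1 probe per gene, and levels of different genes are not compared. Changes are differences of group means from 1 unpaired limma fit to the 12 arrays, with p-values adjusted over the 11414 genes (Benjamini-Hochberg) and read at a threshold of 0.05. The median within-group SD of a member was 0.10 (0.0052 to 0.55), and the median SE of a change was 0.11. In bulk RNA such as this, a change in the share of cells in G2 and M and a change of these RNAs per cell cannot be told apart.

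The G2/M genes moved little between treatments. The range of the 4 group means had a median of 0.24 over the 44 members, against 0.31 over all genes tested. It passed 1.5-fold (0.58 on the log2 scale) for 1 member, ESPL1 (0.65), and for 15.1% of all genes. Without vehicle array 3 the ESPL1 range was 0.46. BUB3, which carries BUB1 to the kinetochore, had the narrowest range by the probe used, 0.042, but its other 2 kept probes had ranges of 0.34 and 0.23. The DHT group had the highest mean for 24 members and the lowest for 3, whereas the vehicle group had the lowest mean for 20 and the highest for 4. Enzalutamide was highest for 5 and lowest for 13 members, and the combination was highest for 11 and lowest for 8.

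The pattern is visible on single arrays. The median deviation of the 44 members from their own means over the 12 arrays was -0.09, -0.05 and -0.05 on the vehicle arrays, 0.06, 0.07 and 0.09 with DHT, -0.03, 0.04 and -0.05 with enzalutamide, and -0.03, 0.02 and 0.04 with the combination. The DHT arrays were thus the 3 highest, the vehicle arrays included the lowest, and the other groups overlapped each other. Members did not follow each other closely across arrays. The median Pearson correlation over their 946 pairs was 0.17 on the 12 arrays, and 0.037 once group means were subtracted, when 508 pairs were above 0. All pairs share the same arrays, so these correlations are a description.

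**Figure D2:**
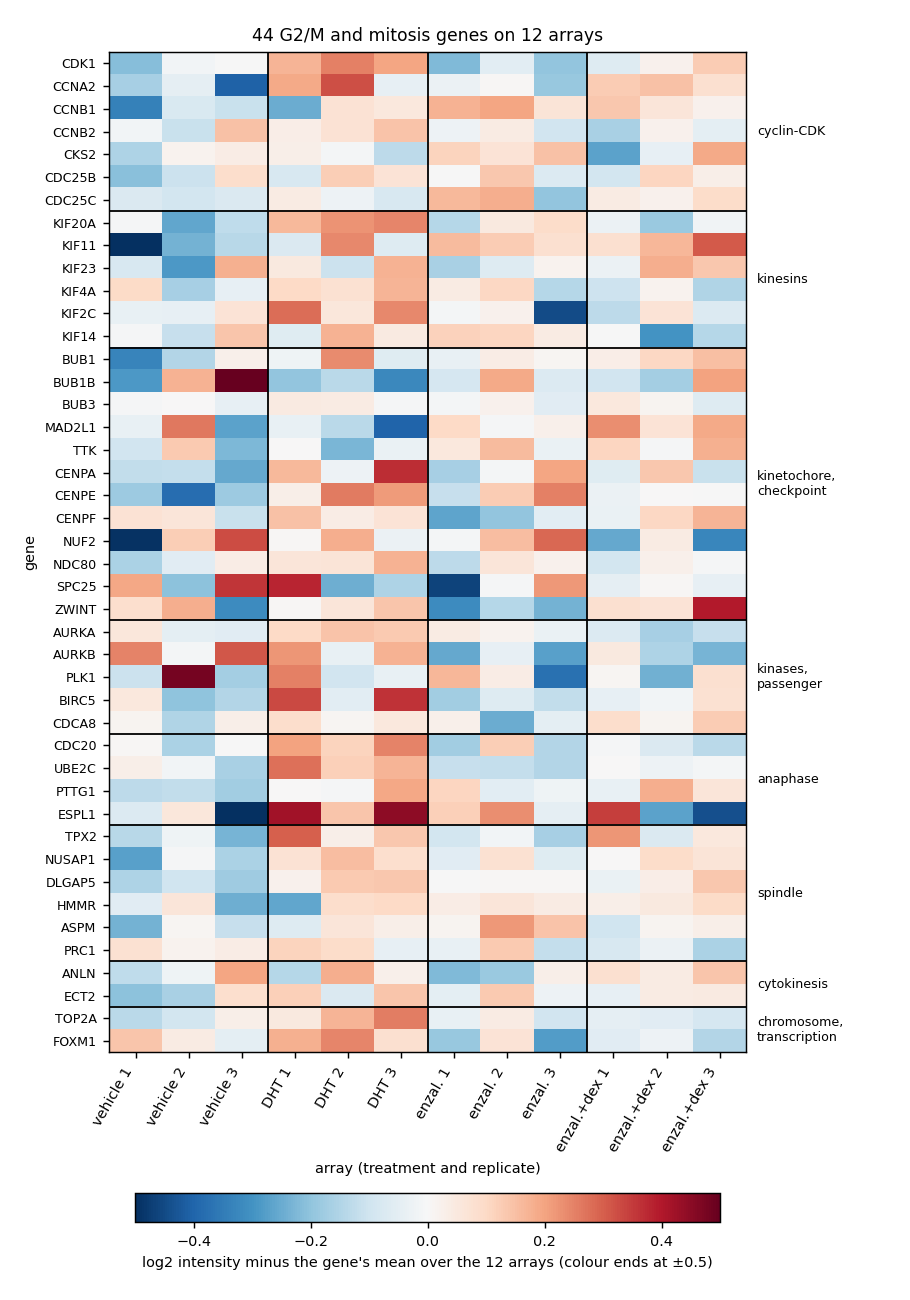
Rows are the 44 tested members by sub-group, columns the 12 arrays by treatment and replicate, and colour the log2 intensity minus the gene's mean over the arrays, blue below and red above. Rows are mostly pale, with more red in the DHT columns, and the deepest colours are those of single arrays in ESPL1, BUB1B and KIF11.

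Added DHT was compared with vehicle to ask what more androgen does to these genes. Of the 44 members 5 rose and 0 fell: the kinetochore motor CENPE, the central spindle kinesin KIF20A, cyclin A2 (CCNA2), the mitotic kinase CDK1, and the spindle protein DLGAP5. All 5 changes were small, from 1.18-fold to 1.33-fold. Over all genes 11% were higher and 10.7% lower, so the 5 higher members (11.4%) are near the background share and the 0 lower members are below it. In the same limma fit, 15 members were higher and 0 lower at an unadjusted p under 0.05 (34.1% and 0% of the members), where 17.3% of all genes were higher and 16.3% lower.

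CENPE (chr4:103105811-103198343), which moves chromosomes to the middle of the spindle, read 7.37, 7.16 and 7.36 on the vehicle arrays, 7.57, 7.81 and 7.76 with DHT, 7.43, 7.67 and 7.80 with enzalutamide and 7.52, 7.55 and 7.54 with the combination. The DHT arrays were all above the vehicle arrays, and the change was 0.42 ± 0.11 (SE) with an adjusted p of 0.0178 (95% interval 0.18 to 0.65). KIF20A (chr5:138179112-138187723), a kinesin of the central spindle, read 8.96, 8.71 and 8.84 on the vehicle arrays, 9.13, 9.19 and 9.21 with DHT, 8.82, 9.02 and 9.06 with enzalutamide and 8.94, 8.78 and 8.95 with the combination. Its DHT arrays were also all above the vehicle arrays, by 0.34 ± 0.098 (SE) with an adjusted p of 0.0263. The enzalutamide arrays of CENPE ran from just above the vehicle arrays into the DHT range, and those of KIF20A were all below the DHT arrays.

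CCNA2 (chr4:121816444-121823883), the cyclin that pairs with CDK2 and CDK1 through S and G2 phase, read 8.04, 8.16 and 7.80 on the vehicle arrays, 8.39, 8.53 and 8.16 with DHT, 8.17, 8.21 and 8.01 with enzalutamide and 8.33, 8.35 and 8.28 with the combination. Vehicle array 2 and DHT array 3 lay close together at the edges of groups that did not overlap, and the change was 0.36 ± 0.12 (SE) with an adjusted p of 0.0456. CDK1 (chr10:60778331-60794852), the kinase that drives entry into mitosis, read 8.91, 9.12 and 9.12 on the vehicle arrays, 9.30, 9.38 and 9.32 with DHT, 8.91, 9.07 and 8.93 with enzalutamide and 9.06, 9.15 and 9.25 with the combination. Its DHT arrays were the highest 3 of the 12, and the change from vehicle was 0.28 ± 0.092 (SE) with an adjusted p of 0.0470. DLGAP5 (chr14:55148135-55191585), which stabilizes kinetochore microtubules, read 8.09, 8.15 and 8.07 on the vehicle arrays, 8.27, 8.38 and 8.38 with DHT, 8.25, 8.26 and 8.25 with enzalutamide and 8.21, 8.28 and 8.38 with the combination, and its change was 0.24 ± 0.078 (SE) with an adjusted p of 0.0474. The DLGAP5 vehicle arrays were below all 9 others. A further kept probe changed by 0.24 for CENPE, 0.17 for CDK1 and 0.42 for DLGAP5, and with the mean of all kept probes the CDK1 call was lost (adjusted p 0.0596).

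These calls rest on few arrays. Without vehicle array 1, 2 or 3 the count of higher members was 2, 3 or 2, and without DHT array 1, 2 or 3 it was 2, 2 or 1. CENPE kept its call in 3 of those 6 fits, KIF20A and CCNA2 in 2, and CDK1 and DLGAP5 in 0. Without vehicle array 3, which stood apart, the 2 higher members were CENPE and KIF11, and without vehicle array 1 BUB1B was lower. Within set 1 the 5 genes changed by 0.20 to 0.43 and within set 2 by 0.20 to 0.40. None of the 5 passed there, but with 2 arrays against 2, or 1 against 1, such fits do not show whether the calls hold. ESPL1 passed in set 2 (1.39), where its lowest vehicle array is the only one. With the set as a block in all 12 arrays, the 5 passed again with ESPL1 (adjusted p 0.0476 in limma). Same-numbered vehicle and DHT arrays deviated together (r of 0.15, 0.15 and 0.19), and with the replicate number as a block limma also gave NUSAP1 as higher (adjusted p 0.0428).

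The order was also read from groups that did not overlap. By the probe used, DHT arrays were all above vehicle arrays for 16 members and all below for 0, whereas 19.3% and 17.9% of all genes did so. The 16 were the 5 called genes with UBE2C, NUSAP1, KIF11, TPX2, CENPA, ESPL1, TOP2A, CDC20, PTTG1, AURKA and NDC80. Other kept probes of CDK1, CENPE, DLGAP5 and AURKA repeated this, and those of NUSAP1, KIF11, CENPA and PTTG1 overlapped. Of members that overlapped by the probe used, another kept probe was above for CDC25C, KIF23, SPC25 and BUB3, and below for MAD2L1. The change was above 0 for 37 of 44 members and for 51.4% of all genes, with medians of 0.13 and 0.01. Under median scaling of the arrays, which moved the median of all genes by 0.15, 43 members were above 0 and 39 were above the new median of all genes. The 95% interval stayed within 1.5-fold in either direction for 38 members, as it did for 66.9% of all genes.

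**Figure D3:**
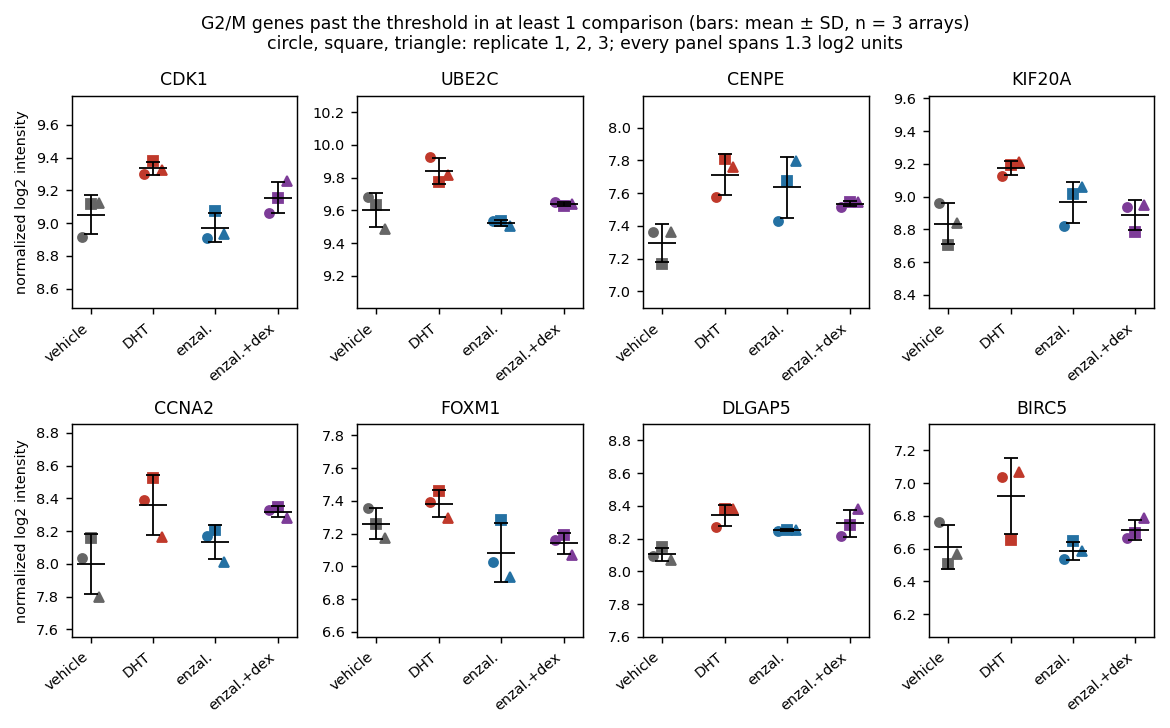
Points are the normalized log2 intensities of the 8 members past the threshold in at least 1 comparison, by treatment and replicate, with the mean ± SD (n = 3) as bars, and each panel spans the same number of log2 units. The DHT arrays of CDK1, KIF20A and CENPE lie above all vehicle arrays, and those of BIRC5 do not.

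By role, the 4 anaphase genes were all above 0 with DHT (median 0.24) and 0 were called. CDC20, the activator of the anaphase-promoting complex, read 10.17, 10.01 and 10.16 on the vehicle arrays, 10.37, 10.28 and 10.41 with DHT, 9.99, 10.29 and 10.02 with enzalutamide and 10.16, 10.09 and 10.03 with the combination. Its change with DHT was 0.24 ± 0.099 (SE) with an adjusted p of 0.112, and its enzalutamide array 2 reached the DHT values. UBE2C (chr20:45812644-45816952), the ubiquitin-conjugating enzyme of that complex, read 9.68, 9.64 and 9.49 on the vehicle arrays, 9.92, 9.77 and 9.82 with DHT, 9.54, 9.53 and 9.50 with enzalutamide and 9.65, 9.62 and 9.64 with the combination. DHT arrays were above vehicle arrays by 0.24 ± 0.081 (SE), with an adjusted p of 0.0572. Securin (PTTG1) changed by 0.21 ± 0.091 (SE) and separase (ESPL1), which cuts cohesin at anaphase, by 0.65 ± 0.25 (SE), with adjusted p-values of 0.135 and 0.0884. ESPL1, named after its values were seen, read 6.17, 6.30 and 5.30 on the vehicle arrays, 6.66, 6.38 and 6.69 with DHT, 6.36, 6.47 and 6.20 with enzalutamide and 6.58, 5.97 and 5.80 with the combination, and vehicle array 3 was its lowest. Without that array the ESPL1 change was 0.34.

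Of the 6 spindle and midzone genes 6 were above 0 (median 0.18), TPX2 by 0.28 ± 0.11 (SE) and NUSAP1 by 0.25 ± 0.089 (SE), with 1 called. PRC1, which bundles antiparallel microtubules in the midzone, read 9.48, 9.42 and 9.44 on the vehicle arrays, 9.52, 9.50 and 9.36 with DHT, 9.37, 9.54 and 9.29 with enzalutamide and 9.33, 9.38 and 9.25 with the combination, and all 4 groups overlapped except that the combination lay below vehicle. The 6 kinesins were all above 0 (median 0.17, from 0.05 to 0.38), with 1 called. KIF11, the motor that separates spindle poles, had the largest of these changes, 0.38 ± 0.14 (SE), but its other kept probe changed by -0.06. Without vehicle array 1 the KIF11 change was 0.22, and that of KIF20A, at 0.40, was larger. The cyclin-CDK group had 6 of 7 above 0 (median 0.11), with 2 called. CKS2, a small subunit of the CDK complexes, was the exception and read 9.75, 9.92 and 9.94 on the vehicle arrays, 9.93, 9.90 and 9.77 with DHT, 10.02, 9.97 and 10.05 with enzalutamide and 9.64, 9.86 and 10.09 with the combination, with its enzalutamide arrays above all vehicle and all DHT arrays. The other kept CKS2 probe did not show this, and its groups overlapped.

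The 12 kinetochore and checkpoint genes were more mixed, with 8 above 0 (median 0.07) and 1 called. BUB3 read 10.89, 10.90 and 10.86 on the vehicle arrays, 10.95, 10.94 and 10.90 with DHT, 10.89, 10.92 and 10.84 with enzalutamide and 10.95, 10.91 and 10.84 with the combination, with all 12 values close together on this probe. Its other 2 kept probes changed by -0.05 and 0.22 with DHT. BUB1B (BubR1, a component of the mitotic checkpoint complex) and MAD2L1 (MAD2, which captures CDC20) were lower by point estimate, at -0.45 ± 0.22 (SE) and -0.18 ± 0.13 (SE) with adjusted p-values of 0.172 and 0.400. The other kept MAD2L1 probe changed by -0.48, and its DHT arrays were all below its vehicle arrays. BUB1B, named after its values were seen, read 5.87, 6.34 and 6.96 on the vehicle arrays, 5.96, 6.03 and 5.84 with DHT, 6.08, 6.35 and 6.09 with enzalutamide and 6.07, 5.99 and 6.36 with the combination, and its vehicle arrays spanned more than all other arrays together. Without vehicle array 3 the BUB1B change was -0.16. Of the 5 mitotic kinases and passenger proteins 3 were above 0 (median 0.09) and 0 were called. AURKA, the centrosomal Aurora kinase, read 9.67, 9.57 and 9.56 on the vehicle arrays, 9.72, 9.76 and 9.75 with DHT, 9.66, 9.64 and 9.58 with enzalutamide and 9.55, 9.45 and 9.50 with the combination, with the DHT arrays above all others and the combination arrays below all others. On the other kept AURKA probe the DHT arrays were again above the vehicle arrays (0.23), but the combination arrays overlapped the vehicle and the enzalutamide arrays. On the first probe its change with DHT was 0.14 ± 0.075 (SE) with an adjusted p of 0.213.

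Of the remaining members, ECT2, the exchange factor that activates RhoA for cytokinesis, read 9.49, 9.53 and 9.78 on the vehicle arrays, 9.81, 9.62 and 9.83 with DHT, 9.65, 9.83 and 9.67 with enzalutamide and 9.65, 9.74 and 9.74 with the combination. Its groups overlapped. TOP2A, the topoisomerase that untangles chromosomes, read 9.67, 9.71 and 9.83 on the vehicle arrays, 9.85, 9.97 and 10.06 with DHT, 9.76, 9.84 and 9.70 with enzalutamide and 9.75, 9.74 and 9.72 with the combination, and DHT exceeded vehicle by 0.22 ± 0.086 (SE) with an adjusted p of 0.0887. FOXM1 (chr12:2857680-2877174), the transcription factor of many of these genes, read 7.35, 7.26 and 7.17 on the vehicle arrays, 7.39, 7.46 and 7.30 with DHT, 7.03, 7.28 and 6.94 with enzalutamide and 7.16, 7.19 and 7.07 with the combination. Its vehicle and DHT arrays overlapped, with a change of 0.12 ± 0.10 (SE) and an adjusted p of 0.455.

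Markers of other cell types also moved with DHT. ACTA2 rose by 0.65 ± 0.10 (SE), CD14 fell by 0.87, and VWF, detected on 4 arrays, was called higher. The summed intensity was 195 to 212 on vehicle and 247 to 261 on DHT arrays for the 5 stromal genes, 221 to 254 and 156 to 169 for the 4 immune genes, and 90.7 to 104 and 104 to 117 for the 4 endothelial genes. For the 3 basal genes it was 63.5 to 77.2 and 62.1 to 71.2. The part of such RNA in the members' changes was not tested.

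Enzalutamide was compared with vehicle to ask what blocking the receptor does. Of the members 0 rose and 0 fell, with a background of 0.832% of genes higher and 0.999% lower in the limma fit. At an unadjusted p under 0.05, 4 were higher (KIF11, CENPE, CCNB1 and ASPM), against 7.9% of all genes, and 1 was lower (AURKB), against 6.64%. AURKB, the kinase of the chromosomal passenger complex, changed by -0.37 ± 0.12 (SE) with an adjusted p of 0.168. It read 6.45, 6.20 and 6.52 on the vehicle arrays, 6.43, 6.17 and 6.38 with DHT, 5.95, 6.17 and 5.94 with enzalutamide and 6.26, 6.05 and 5.97 with the combination, and the enzalutamide arrays were all below the vehicle arrays. CCNB1, cyclin B1, changed by 0.32 ± 0.11 (SE) and CENPE by 0.34 ± 0.11 (SE), with adjusted p-values of 0.185 and 0.170.

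KIF11 had the largest change with enzalutamide, 0.46 ± 0.14 (SE) with an adjusted p of 0.128, while its other kept probe changed by -0.05. It read 6.68, 7.09 and 7.19 on the vehicle arrays, 7.26, 7.57 and 7.26 with DHT, 7.48, 7.45 and 7.41 with enzalutamide and 7.41, 7.49 and 7.63 with the combination, and the 3 vehicle arrays were below all others. Enzalutamide arrays did not overlap vehicle arrays for 7 members above (background 10.5%) and 1 below (9.67%). The 7 were ASPM, CCNB1, CENPE, CKS2, DLGAP5, KIF11 and PTTG1. Another kept probe repeated this for DLGAP5, and overlapped for CENPE, CKS2, KIF11 and PTTG1. Of members that overlapped by the probe used, another kept probe was above for KIF23, and below for CDK1 (-0.27) and MAD2L1 (-0.27). The change was above 0 for 27 members, with a median of 0.04, and the 95% interval stayed within 1.5-fold for 39 of 44 (80.1% of all genes).

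The combination was compared with enzalutamide to ask what the glucocorticoid adds under the antagonist. Again 0 members rose and 0 fell, against a background of 1.79% higher and 1.72% lower. In the limma fit 2 were higher at an unadjusted p under 0.05 (ZWINT and CENPF, background 7.16%) and 1 was lower (KIF14, 7.6%). ZWINT, a kinetochore protein that binds ZW10, changed by 0.41 ± 0.13 (SE) and CENPF by 0.25 ± 0.094 (SE), with adjusted p-values of 0.145 and 0.216. ZWINT read 6.21, 6.31 and 5.81 on the vehicle arrays, 6.13, 6.19 and 6.26 with DHT, 5.81, 5.98 and 5.89 with enzalutamide and 6.21, 6.19 and 6.52 with the combination, so that the combination arrays were above the enzalutamide arrays but not above all vehicle arrays. KIF14, a kinesin of the midbody, changed by -0.24 ± 0.10 (SE) with an adjusted p of 0.313. CDK1 changed by 0.18 ± 0.092 (SE) and CCNA2 by 0.19 ± 0.12 (SE), with adjusted p-values of 0.395 and 0.518. The other kept CDK1 probe changed by 0.41, with its combination arrays all above its enzalutamide arrays.

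Groups did not overlap for 6 members above (ANLN, BIRC5, CCNA2, CENPF, UBE2C and ZWINT), where 11.7% of all genes did so, and for 2 below (KIF14 and, on 1 of its 2 kept probes, AURKA), where 11.8% did. The change was above 0 for 25 of 44 members with a median of 0.01. The 95% interval stayed within 1.5-fold for 41 members, with ESPL1, NUF2 and ZWINT outside, against 81.5% of all genes.

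Against vehicle, the combination had 0 members higher and 0 lower (0.666% and 0.429% of all genes). At an unadjusted p under 0.05 limma gave 7 higher, KIF11, CCNA2, DLGAP5, PTTG1, CCNB1, BUB1 and NUSAP1 (background 6.08%), and 1 lower, AURKB (5.66%). KIF11 changed by 0.53 ± 0.14 (SE) with an adjusted p of 0.108, and its other kept probe by -0.10. CCNA2 changed by 0.32 ± 0.12 (SE) with an adjusted p of 0.291. Combination arrays were all above vehicle arrays for 10 members (background 9%) and all below for 2, PRC1 and, on 1 of its 2 kept probes, AURKA (8.44%). Among the 10, the other kept probe of CDC25C, CENPA, CENPE, DLGAP5, KIF11, NUSAP1 and PTTG1 overlapped. Of members that overlapped by the probe used, another kept probe was above for BUB3 and ZWINT and below for SPC25. The change was above 0 for 30 members with a median of 0.09, and 41 intervals stayed within 1.5-fold (82% of all genes).

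DHT against enzalutamide sets the receptor's ligand against its antagonist without the vehicle arrays. Of the members 4 were higher and 0 lower: CDK1, UBE2C, FOXM1 and the inhibitor of apoptosis and passenger protein survivin (BIRC5). The background was 14.6% of genes higher and 14.7% lower, so 4 of 44 (9.09%) is below the share of all genes. At an unadjusted p under 0.05, 11 members (25%) were higher and 0 lower, where 19.4% of all genes were higher and 19.3% lower. CDK1 changed by 0.36 ± 0.092 (SE) (1.28-fold) with an adjusted p of 0.0111, and UBE2C by 0.31 ± 0.081 (SE) with an adjusted p of 0.0124. The CDK1 call held without any 1 of the 6 arrays, and the UBE2C call held except without DHT array 1.

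FOXM1 changed by 0.30 ± 0.10 (SE) with an adjusted p of 0.0461, and enzalutamide array 2 lay just below the lowest DHT array. Its other kept probe changed by 0.0067, and the call was lost with the mean of both (0.15, adjusted p 0.298). BIRC5 (chr17:78214253-78225635) read 6.76, 6.51 and 6.56 on the vehicle arrays, 7.04, 6.65 and 7.07 with DHT, 6.53, 6.64 and 6.58 with enzalutamide and 6.67, 6.69 and 6.78 with the combination. It changed by 0.33 ± 0.12 (SE) with an adjusted p of 0.049991, just under the threshold, and DHT array 2 stood near the enzalutamide arrays. FOXM1 and BIRC5 each kept the call in 1 of 6 fits without an array. Without DHT array 1, 2 or 3 the count of higher members was 1, 3 or 2, and without enzalutamide array 1, 2 or 3 it was 2, 5 or 3. It was 0 under median scaling. Within the technical sets 0 passed, where 1 arm has a single array, so that these fits do not show whether the calls hold, and the 4 genes changed by 0.31 to 0.43 in set 1 and by 0.19 to 0.46 in set 2. With the set as a block the FOXM1 call was lost (adjusted p 0.0680 in limma).

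DHT arrays were all above enzalutamide arrays for 14 members (background 22.6%) and all below for 3, BUB1B, CKS2 and MAD2L1 (22.5%). Among the 14, the other kept probe was also above for AURKA and CDK1, and overlapped for DLGAP5, FOXM1 and ZWINT. The other kept MAD2L1 probe was also below, and that of CKS2 overlapped. Of members that overlapped by the probe used, another kept probe was above for BUB3 and CENPE. The change was above 0 for 33 of 44 members with a median of 0.11, and for 49.7% of all genes. By role, all 5 mitotic kinases and passenger proteins and all 4 anaphase genes were above 0, and 4 of 7 cyclin-CDK genes were. The 95% interval stayed within 1.5-fold for 39 members (62.2% of all genes).

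The change with dexamethasone under enzalutamide was tested directly against the change with DHT, a comparison whose arms share no array. The difference passed for 0 members in either direction, with 3.61% of all genes higher and 3.29% lower. At an unadjusted p under 0.05 limma gave 0 members higher (10.1% of all genes) and 4 lower, AURKA, CENPE, ESPL1 and KIF20A (10.4%). CENPE differed by -0.51 ± 0.15 (SE) and KIF20A by -0.42 ± 0.14 (SE), with adjusted p-values of 0.0707 and 0.0974. For CENPE, the change was 0.42 with DHT and -0.10 with dexamethasone, and for KIF20A it was 0.34 and -0.08. The difference was above 0 for 11 of 44 members, with a median of -0.12, and 32 intervals stayed within 1.5-fold (46.5% of all genes).

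The rest of the G2/M pathway was read from lists that are not members. Of 56 tested further G2/M genes, 8 (14.3%) rose and 5 (8.93%) fell with DHT, against 11% and 10.7% of all genes. Their median change was 0.12, against 0.01 for all genes. CENPU, of the inner kinetochore, fell by 0.63, and CENPN, TUBB4B (a beta-tubulin) and CDCA3 rose by 0.60 ± 0.098 (SE), 0.58 ± 0.093 (SE) and 0.49 ± 0.089 (SE). With enzalutamide 0 of these 56 passed in limma (9 at an unadjusted p under 0.05). With the combination against enzalutamide CENPN rose by 0.50 ± 0.098 (SE) and 0 fell (1.79% higher, against 1.79% of all genes). Against vehicle the combination had 0 of 56 past the threshold (6 unadjusted). DHT against enzalutamide had 6 higher (10.7%) and 2 lower (3.57%), below the 14.6% and 14.7% of all genes. KIF22, a chromosome arm kinesin, was 1.18 ± 0.13 (SE) higher.

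Of 21 tested regulators of G2/M entry and of G2/M transcription, 1 (4.76%) rose and 3 (14.3%) fell with DHT. The shares over all genes were 11% and 10.7%. CDKN1A (p21), an inhibitor of cyclin-dependent kinases, rose by 0.91 ± 0.10 (SE), while the phosphatase CDC25A fell by 0.98, the checkpoint kinase CHEK1 by 0.74 and CHEK2 by 0.41. With enzalutamide CDC25A fell by 0.85 and CHEK1 by 0.60. These 2 made 9.52% of the list, where 0.999% of all genes fell. With the combination against enzalutamide CHEK1 rose by 0.52 ± 0.11 (SE), CDC25A by 0.50 ± 0.12 (SE) and CDKN1A by 0.47 ± 0.10 (SE). These 3 made 14.3% of the list, where 1.79% of all genes rose. Of 13 tested subunits of the anaphase-promoting complex 2 (15.4%) fell with DHT, where 10.7% of all genes did. They were ANAPC4, by 0.65, and CDC16, by 0.27. Of these 13, 0 passed with enzalutamide (0 unadjusted) or with the combination against enzalutamide (2 unadjusted).

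The G1/S and replication list, whose 35 tested genes serve the preceding step of the cycle, gave larger values than the members in the same arrays. With DHT 26 of 35 (74.3%) fell and 0 rose (median -0.58), against 10.7% and 11% of all genes. The falls were led by the helicase subunits MCM2 (-1.48), MCM4 (-1.35) and MCM6 (-1.03). Under median scaling 10 fell with DHT (1.92% of all genes), 0 with enzalutamide (0.123%), and 2 rose with the combination against enzalutamide (0.64%). With enzalutamide 11 (31.4%) fell and 0 rose (median -0.34), against 0.999% and 0.832% of all genes. CDC45 fell by 0.78, and without any 1 array 4 to 9 fell. With the combination against enzalutamide 8 (22.9%) rose and 0 fell (median 0.16), against 1.79% and 1.72% of all genes. Without any 1 array 4 to 6 rose. CDC45 rose by 0.72 ± 0.075 (SE) and the chromatin protein UHRF1 by 0.64 ± 0.099 (SE). With the combination against vehicle 0 passed (7 at an unadjusted p under 0.05, all lower). DHT against enzalutamide had 14 lower (40%) and 1 higher (2.86%), RRM2 (0.58), against 14.7% and 14.6% of all genes. The median was -0.19. The dexamethasone change minus the DHT change was higher for 23 of 35 (65.7%), against 3.61% of all genes, and for 10 under median scaling. Set beside these, the members had medians of 0.13, 0.04, 0.01, 0.09, 0.11 and, for the difference, -0.12. The difference between the lists was not tested, since genes of 1 list are not replicates.

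**Figure D4:**
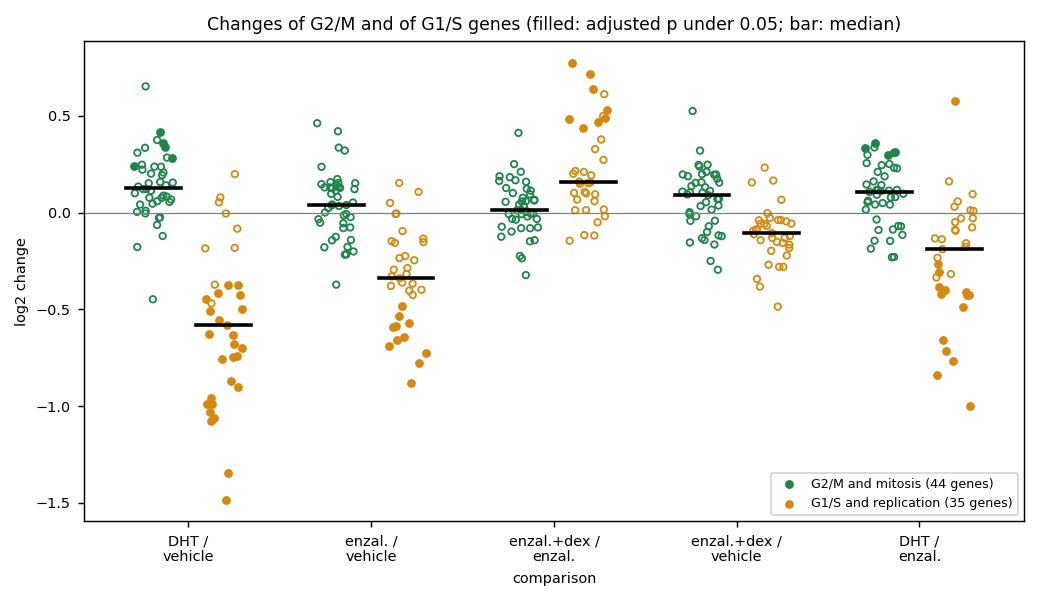
Each point is the log2 change of 1 gene in a comparison, green for the 44 members and orange for the 35 G1/S genes, filled where the adjusted p is under 0.05, with a bar at the median. Members stay between -0.45 and 0.65, while 26 G1/S genes are filled below 0 with DHT.

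**Figure D5:**
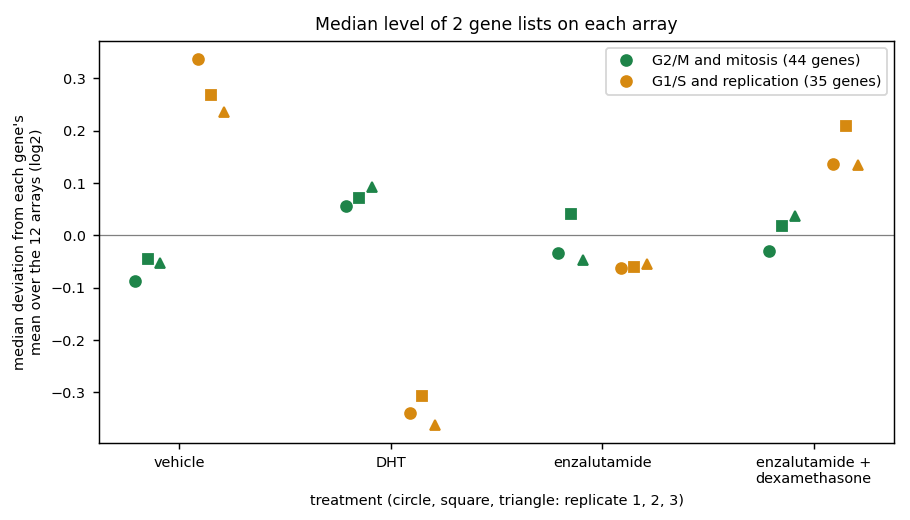
Points are the median deviation of each list from the genes' means over 12 arrays, in log2 units, by treatment and replicate (circle, square and triangle for replicates 1, 2 and 3). The members lie between -0.09 and 0.09 on every array, and the G1/S list between -0.36 and 0.34 with the DHT arrays lowest.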

How the data were processed

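RNA from 12 VCaP cultures had been hybridized as labelled cRNA to Illumina BeadChips, with 1 array per culture and 3 per group. Samples were grouped by the treatment in their labels, and the members and gene lists were chosen with earlier results of these data known. The deposited intensities, 1 per probe and array, came from GenomeStudio, per the submitters' processing notes (version not given in the sources used here), and were not normalized between arrays. The deposited detection p-value of each probe, per the file headers, sits beside its intensity. A second deposited table holds intensities that the authors processed on a linear scale (29.5% below 0, so 42.5 was added before log2), used as an alternative. Its steps are not stated beyond that, and 24 per-sample columns of the first table were not used.

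Intensities were background-corrected and quantile-normalized with neqc of limma 3.58.1 in R 4.3.3 (offset 16), which used the detection p-values since no control probes were at hand. A probe was kept if its detection p-value was under 0.05 on 3 arrays or more, as for 20265 of 47322 (42.8%). The platform annotation gave 1 symbol for 30112 probes and several for 8, and 17202 probes not listed are unnamed here. The kept probe of highest mean stood for a gene. Of the members 27 had 1 kept probe and 17 had more, and for 15 of the 17 the kept probes differed in sign in at least 1 of the 5 group comparisons. Changes were fitted with lmFit and eBayes over all 12 arrays, with variances moderated over all kept probes (8 residual and 3.71 prior degrees of freedom), two-sided p-values, and adjustment by Benjamini-Hochberg across 11414 genes. The number of arrays limits the precision: in simulated data for DHT against vehicle (200 changed among 11414 genes), 6% of genes changed by 0.3, 56% by 0.5, 90% by 1 and 100% by 2 on the log2 scale were recovered. In the data far more genes passed with DHT (1259 higher and 1217 lower), which makes the adjustment less strict than in the simulation. These percentages therefore do not give the recovery in that comparison and can understate it.

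By rule, values on every array are given for the 8 members past the threshold in any comparison and the member with the highest mean in each sub-group. ESPL1, BUB1B, AURKB, KIF11 and ZWINT were added outside that rule, with their values already seen. Others are given by range, count or change. Alternatives changed the filter, background correction, normalization, table, probe rule, block, technical set, moderation and arrays. Same-numbered arrays of different groups deviated together at r above 0.1 in 11 of 18 pairs (-0.08 to 0.22). All 3 pairs passed that for vehicle with DHT and for no other pair of groups. The median r was 0.13 for same-numbered pairs and -0.07 for pairs of different number. The changes, SEs and p-values reported as main results use no pairing in any comparison. The replicate number was fitted as a block only as an alternative, in all comparisons.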

Additional observations from a re-analysis of the deposited data

Results flagged for a closer look

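The difference between the change with dexamethasone under enzalutamide and the change with DHT passed the threshold for 0 of the 44 members. It was higher for 3 of 56 further G2/M genes (5.36%), 2 of 21 regulators (9.52%) and 23 of 35 G1/S genes (65.7%). It was lower for 0 of each. Over all genes the difference was higher for 3.61% and lower for 3.29%. On the log2 scale it was 0.785 for CENPU, 0.652 for KNTC1 and 0.557 for CENPM among the further G2/M genes, with adjusted p-values from limma of 0.00569, 0.0189 and 0.0274. Among the regulators of G2/M entry it was 1.47 for CDC25A and 1.26 for CHEK1. Among the G1/S and replication genes the smallest adjusted p-values went with 1.84 for MCM4, 1.4 for CDC45, 1.59 for MCM2 and 1.6 for UHRF1. Groups of 3 arrays are too small for a test of single outlying arrays.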

How the results depend on the processing

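The 2 counts of called members that were above 0 changed with the processing: under 14 alternatives that kept all arrays or 1 technical set, 7 gave a count within 1.5 times that for DHT against vehicle and 8 for DHT against enzalutamide, while 0 single calls reversed. Of the 10 counts reported as 0, 7 were 0 under all 14 and 3 were not. Members higher with DHT against vehicle numbered 5 as reported, 12 with the stricter detection filter, 13 with no background correction, 10 with an offset of 50, 3 under median scaling, 13 with trend and robust moderation, and 0 and 1 within the technical sets, whose arms hold 1 or 2 arrays. Without 1 array they numbered 1 to 3, and members lower 0 to 1 (BUB1B without vehicle array 1). In the enzalutamide comparison with vehicle, members higher numbered 1 (KIF11) with no background correction and 2 (KIF11 and CCNB1) with trend and robust moderation, and 0 without any 1 array. Against vehicle, the combination had 1 member higher, KIF11, with no background correction, 1 with an offset of 50, 1 under median scaling and 1 with trend and robust moderation. For DHT against enzalutamide, the 4 members higher became 2 with no detection filter, 8 with the stricter filter, 0 under median scaling, 0 and 0 within the technical sets, 2 under median scaling on the 12820 probes detected on all arrays (chosen after seeing the data), and 1 to 5 without 1 array. In the difference of the changes, members lower numbered 1 (CENPE) with the stricter filter, 2 (CENPE and KIF20A) with no background correction, 2 with an offset of 50, 1 with the mean of all kept probes, 2 with trend and robust moderation, and 0 to 1 without 1 array (1 without enzalutamide array 1). Median scaling moved the median of all genes from 0.01 to 0.15 with DHT (950 genes higher and 219 lower, against 1259 and 1217), from 0.01 to 0.13 with enzalutamide and from 0.01 to 0.21 with the combination against vehicle. With the replicate number as a block, 6 members were higher with DHT against vehicle (NUSAP1 added) and 3 with DHT against enzalutamide (BIRC5 lost, adjusted p 0.0502 in limma), and 0 in the other comparisons. Dim probes limit the members with low signal, such as ESPL1, BUB1B and PLK1. The cause of these shifts was not tested.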
